A study of Arabidopsis thaliana with 6 samples.

Results

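Genes annotated with the Gene Ontology term response to bacterium were followed in RNA sequencing data of Arabidopsis thaliana seedlings. The members are the genes of the deposited table that carry this term, without those also annotated with response to water deprivation and without symbols starting with WRKY, MYB, ERF, ABC, GST or PER. The rule left 95 of the 115 genes of the term, out of 32833 genes in the table. The term had been picked because it led the terms enriched among genes higher in the mutant. The fold changes and calls of the members therefore belong to the same contrast as the choice, and they are given as a description without a test.

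All libraries came from total RNA of whole seedlings aged 8 days, 3 from the wild type (WT) and 3 from phod2. The phod2 libraries carry the name LIP1 in their descriptions, and the title of the series concerns phosphate homeostasis and LIP1p, a plastid enzyme that makes the cofactor lipoate. The kind of change that phod2 carries and any transgene are not given in the labels. The series text mentions high and low phosphate supply (HP or LP) without saying which applied to a library, and no label names a bacterium or another elicitor. The replicates are described as biological, but the labels do not say which plants were grown together, so the spread between libraries may be partly technical.

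Library totals ran from 17319308 to 22417595 counts, and the fit covered 20169 genes. LIP1P (AT5G08415) had 22.1 ± 1.14 FPKM in WT and 13.7 ± 0.69 in phod2 (SD, n = 3 each). FPKM is the read count scaled by exonic gene length and library total. Markers of roots and of green tissue were counted in every library, as the label seedlings implies. All 7 root hair markers and 7 of 8 markers of the root endodermis fell in phod2 (edgeR, adjusted p of 0.05 or less), with sums of 38.6 to 45.3 FPKM in WT against 12.6 to 13.7 in phod2 for the first list and of 92.5 to 101 against 26.4 to 28.4 for the second. Of 6 green tissue markers 3 rose and 2 fell, with sums of 18799 to 19046 FPKM in WT and 19727 to 20057 in phod2. The part of these differences in the results on the response to bacterium genes was not tested, and in whole seedlings fewer cells of a type and less RNA per cell cannot be told apart.

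Plants sense bacteria with receptors at the cell surface, which bind conserved microbial molecules, and with intracellular receptors, which detect the proteins that bacteria deliver into the cell. Both feed into the hormone salicylic acid: the transcription factors SARD1 and CBP60g switch on its synthesis, NPR1 and its relatives perceive it, and secreted pathogenesis-related proteins are late outputs. The term also holds genes of iron uptake, cell wall remodelling and jasmonate synthesis that respond to bacteria.

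Of the 95 genes, 82 were tested and 13 had too few counts. Among the latter SON1, CAD8, AT5G26130 and AT5G56985 had 0 counts in every library, and the other 9 had at most 39 counts over all 6 libraries. A gene was called at an adjusted p of 0.05 or less and a fold change of at least 2, the rule the study states. By it 10 members were higher in phod2, beside 1.79% of all tested genes, and 7 were lower, beside 5.72%. By the adjusted p alone 33 were higher, beside 20.9% of all tested genes, 25 were lower, beside 24.6%, and 24 did not pass. The 3 phod2 libraries lay wholly above the 3 WT libraries in FPKM for 39 tested members (30.8% of all tested genes). They lay wholly below for 23 (23.3%), and 20 overlapped. The fit also used scaling factors (TMM) of 0.9847 to 0.9868 in WT and 1.012 to 1.017 in phod2, which FPKM lack. Small changes, and the overlap of libraries in FPKM, thus lean further towards higher in phod2 than the fit. The median log2 fold change of the tested members was 0.09, against 0.01 over all tested genes. Just inside the 2-fold rule lay HR4 (log2 fold change 1.02) and TLP1 (-1.11), and just outside ECS1 (0.82) and AT4G14390 (-0.91). Genes that passed the filter on low counts only through the group where they were high had to differ, so the counts over tested members carry no weight of their own.

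**Figure D1:**
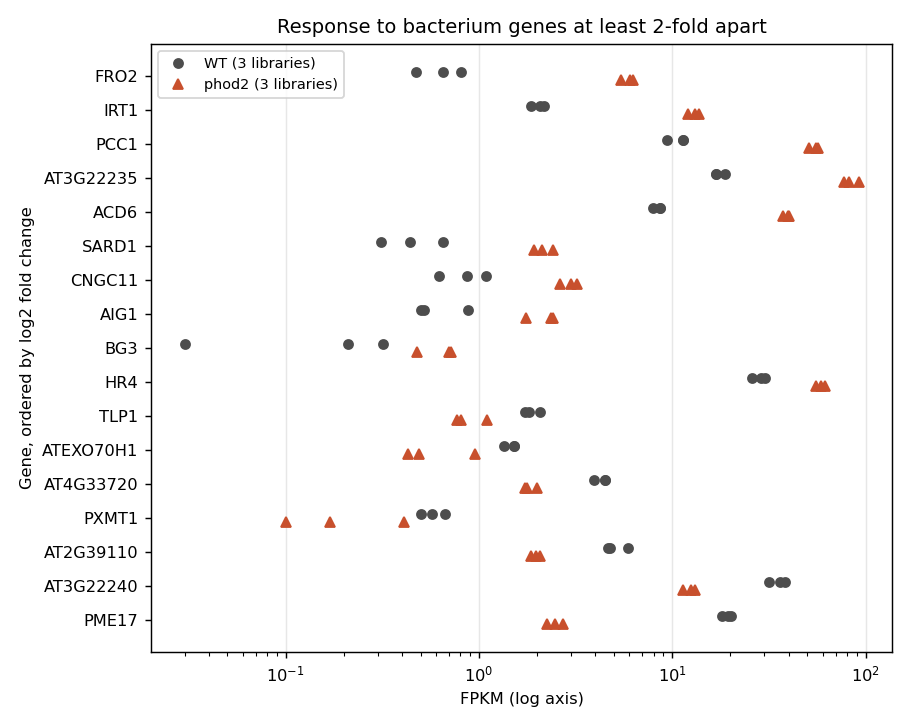
Level of the 17 response to bacterium genes that were at least 2-fold apart, in FPKM on a log axis, with 1 grey circle for each WT library and 1 orange triangle for each phod2 library. The 10 genes at the top were higher in phod2 and the 7 at the bottom lower, and the libraries of the 2 genotypes did not overlap for any of the 17 genes.

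The group of resistance and cell death proteins held the most calls, 5 higher and 1 lower of 13 tested members. Of all tested genes 1.79% were called higher and 5.72% lower. The group, chosen like the other roles with earlier results known, had a median log2 fold change of 0.67. It includes 3 neighbouring genes on chromosome 3, all on the minus strand and with no other gene of the table between them, that encode small cysteine-rich membrane proteins. PCC1 (AT3G22231, positions 7845823 to 7846833) is known as a pathogen-induced gene that follows the circadian clock. AT3G22235 (positions 7854419 to 7855814) lies 7585 bases beyond it and AT3G22240 (positions 7863606 to 7864895) another 7791 bases on. The first 150 bases of their coding sequences are shown because the 3 genes are close copies that went in opposite directions. Capitals mark bases of AT3G22240 that differ from PCC1 at the same place, 18 of 150, while AT3G22235 and PCC1 do not differ in this stretch.
PCC1: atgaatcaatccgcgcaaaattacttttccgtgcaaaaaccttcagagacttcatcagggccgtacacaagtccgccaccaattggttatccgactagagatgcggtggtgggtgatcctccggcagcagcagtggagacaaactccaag
AT3G22235: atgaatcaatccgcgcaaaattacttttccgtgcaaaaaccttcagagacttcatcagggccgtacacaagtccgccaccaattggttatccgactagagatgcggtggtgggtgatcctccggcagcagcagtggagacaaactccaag
AT3G22240: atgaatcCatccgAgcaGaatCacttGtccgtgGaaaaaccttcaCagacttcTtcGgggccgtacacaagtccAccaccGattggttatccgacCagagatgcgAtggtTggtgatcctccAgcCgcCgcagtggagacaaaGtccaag

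PCC1 had 11.31, 11.43 and 9.39 FPKM in the 3 WT libraries and 51.18, 56.55 and 55.63 in the 3 phod2 libraries. AT3G22235 had 16.75, 18.83 and 16.75 FPKM in WT and 77.40, 92.18 and 82.33 in phod2. AT3G22240 had 31.68, 38.21 and 35.94 FPKM in WT and 13.06, 11.30 and 12.45 in phod2. All phod2 libraries were thus above all WT libraries for the first pair and below them for the third gene, which had the highest level of the trio in WT and the lowest in phod2. The log2 fold changes (phod2 relative to WT, ± SE of the edgeR fit) were 2.31 ± 0.08 for PCC1, 2.23 ± 0.07 for AT3G22235 and -1.56 ± 0.09 for AT3G22240. Over the whole coding sequences PCC1 (246 bases) matched AT3G22235 (216 bases) at 93.0% of 214 aligned bases, and AT3G22240 (219 bases) at 83.1% of 213. AT3G22235 and AT3G22240 matched at 90.5% of their aligned coding bases and 90.4% of 554 aligned transcript bases. The transcripts of PCC1 and AT3G22235 were 99.4% identical over 344 bases, 44.5% and 51.3% of their lengths, so the split of reads between this pair is uncertain, and their values are not independent of each other. Whether reads were also split between AT3G22235 and AT3G22240 was not tested.

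The 250 bases before the annotated starts are printed because PCC1 and AT3G22235 share a stretch there that AT3G22240 lacks. They were read from the TAIR10.1 genome on the minus strand, at chr3:7846834-7847083 for PCC1, chr3:7855815-7856064 for AT3G22235 and chr3:7864896-7865145 for AT3G22240. Capitals mark TGACG, the core of the as-1 element that TGA transcription factors bind, on either strand (CGTCA on the strand shown).
PCC1: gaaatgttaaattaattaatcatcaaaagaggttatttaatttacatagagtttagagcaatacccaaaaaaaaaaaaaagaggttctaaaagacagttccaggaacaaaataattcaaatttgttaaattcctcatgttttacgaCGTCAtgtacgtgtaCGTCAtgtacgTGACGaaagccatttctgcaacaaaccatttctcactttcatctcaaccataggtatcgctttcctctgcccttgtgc
AT3G22235: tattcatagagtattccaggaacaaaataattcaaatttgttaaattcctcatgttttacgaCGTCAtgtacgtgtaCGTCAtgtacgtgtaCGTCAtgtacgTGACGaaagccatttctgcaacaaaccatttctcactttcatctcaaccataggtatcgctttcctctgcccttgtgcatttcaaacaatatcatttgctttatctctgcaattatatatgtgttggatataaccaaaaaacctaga
AT3G22240: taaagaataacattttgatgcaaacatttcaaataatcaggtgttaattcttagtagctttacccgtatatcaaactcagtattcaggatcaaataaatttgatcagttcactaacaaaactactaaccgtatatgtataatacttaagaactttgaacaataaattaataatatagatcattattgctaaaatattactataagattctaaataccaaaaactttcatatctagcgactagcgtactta

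The PCC1 window held 3 matches and the AT3G22235 window 4, in a run of repeats, and the AT3G22240 window held 0. In the best local alignment the windows of PCC1 and AT3G22235 were identical at all 153 aligned bases. A gap in the run of repeats, where AT3G22235 holds bases that PCC1 lacks, was not counted. The best local alignment of PCC1 with AT3G22240 covered 56 bases at 82.1% identity. TGACG was present in 18.4% of the windows of all 32518 genes with one, so a match by itself is common, and a match is a description and not a binding site.

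ACD6 (AT4G14400, chromosome 4, positions 8294165 to 8299195, plus strand), an ankyrin-repeat membrane protein whose gain-of-function allele causes cell death in a salicylic acid-dependent way, had 7.93, 8.68 and 8.60 FPKM in WT and 39.47, 37.53 and 40.08 in phod2. Its neighbour AT4G14390, another ankyrin-repeat gene 1961 bases upstream, had 0.92, 0.61 and 0.92 FPKM in WT and 0.37, 0.57 and 0.42 in phod2. The genotypes did not overlap for either gene, but the levels of the neighbour were all under 1 FPKM. The log2 fold changes were 2.18 ± 0.04 for ACD6 and -0.91 ± 0.27 for AT4G14390. The latter passed 2-fold without WT replicate 2 (-1.06) and also without phod2 replicate 2. On the log2(FPKM + 0.1) scale it was at -0.72 and did not pass (limma, adjusted p = 0.06).

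**Figure D2:**
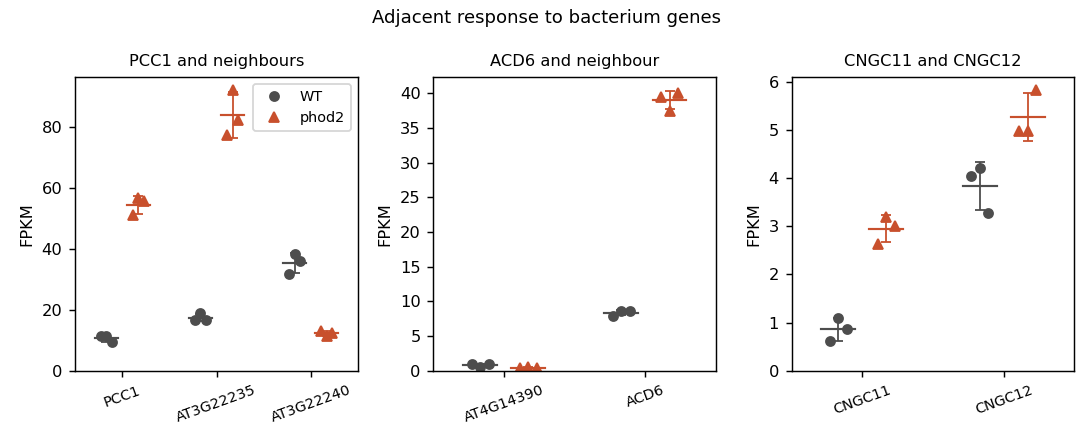
FPKM of adjacent response to bacterium genes, with 1 point for each library (grey circles WT, orange triangles phod2) and a line for the mean with a bar of 1 SD (n = 3). PCC1, AT3G22235, ACD6, CNGC11 and CNGC12 were higher in all phod2 libraries, and AT3G22240 and AT4G14390 were lower in all of them.

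HR4, a relative of the RPW8 resistance proteins, had 30.05, 28.69 and 25.92 FPKM in WT and 59.07, 55.61 and 61.63 in phod2. The difference lay at the 2-fold line: the log2 fold change was 1.02 ± 0.05, and 0.96 without WT replicate 3 and 0.98 without phod2 replicate 3. AIG1, a GTP-binding protein first described as induced by a bacterial avirulence gene, had 0.88, 0.52 and 0.50 FPKM in WT and 2.36, 2.42 and 1.76 in phod2. All phod2 libraries were higher, at a log2 fold change of 1.71 ± 0.23 (0.96 on the log2(FPKM + 1) scale, which understates the change of low genes). ECS1, whose mean over all 6 libraries was the highest among the members, had 377 ± 3.94 FPKM in WT and 686 ± 27.8 in phod2 (SD, n = 3), at a log2 fold change of 0.82 ± 0.03. Its transcript is 92.3% identical to that of AT1G06447 over 34.4% of its length, and 91.6% to that of AT1G06443 over 28.9%. AIG2A (0.67 ± 0.08, with a transcript 90.7% identical to that of AT3G28940 over 44.6% of its length) and HSR4 (log2 fold change 0.53 ± 0.14) were higher in all phod2 libraries. The ubiquitin ligase ATL55 had a log2 fold change of 0.54 ± 0.16 with overlapping libraries. NHL3 was lower in all phod2 libraries (-0.23 ± 0.05), and other counted genes overlap 44.4% of it.

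Genes of salicylic acid synthesis, sensing and turnover went in both directions. Of 9 tested members 5 were higher and 2 lower by the adjusted p alone (20.9% and 24.6% of all tested genes). The one called at 2-fold was SARD1. SARD1 had 0.65, 0.31 and 0.44 FPKM in WT and 2.11, 1.92 and 2.41 in phod2, which were 13 to 35 counts against 89 to 121. Every phod2 library was above every WT library, at a log2 fold change of 2.11 ± 0.21. EDS16, the isochorismate synthase ICS1 that makes the precursor of most pathogen-induced salicylic acid, had 3.81, 3.84 and 3.43 FPKM in WT and 5.99, 5.33 and 5.08 in phod2 (0.52 ± 0.10). The genotypes did not overlap for it, nor for the 2 genes that follow. CBP60G, the partner of SARD1 in activating ICS1, had a log2 fold change of 0.52 ± 0.15, and PAD4, a lipase-like protein that acts with EDS1, of 0.48 ± 0.10. The receptor gene NPR4 was at 0.24 ± 0.06, while NPR1 was at 0.01 ± 0.06 with overlapping libraries and took the other sign without WT replicate 1 (-0.04).

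The 2 genes of salicylic acid turnover were lower. DLO1, a hydroxylase that inactivates salicylic acid, had 1.68, 1.45 and 1.57 FPKM in WT and 0.61, 0.80 and 1.16 in phod2, with no overlap. Its log2 fold change was -0.89 ± 0.25, and -1.18 without phod2 replicate 3, past 2-fold. DMR6, the other hydroxylase, was at -0.20 ± 0.08. EPS1, which completes synthesis after the ICS1 and PBS3 steps, was at 0.09 ± 0.16.

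The SARD1 window before the start (chr1:27749249-27749498, minus strand) is printed because SARD1 leads this group and its window, too, holds TGACG. Capitals mark the 3 matches on either strand, of which the first and second overlap in TGACGTCA.
SARD1: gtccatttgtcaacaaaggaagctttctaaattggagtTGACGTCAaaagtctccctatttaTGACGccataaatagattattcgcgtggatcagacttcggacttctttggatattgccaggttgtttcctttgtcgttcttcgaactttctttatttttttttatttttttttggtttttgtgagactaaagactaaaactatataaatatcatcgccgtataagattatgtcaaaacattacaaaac

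Secreted proteins of the pathogenesis-related type were mixed as well, with a median log2 fold change of -0.04 over 10 tested members. Of these 3 were higher and 4 lower by the adjusted p alone (20.9% and 24.6% of all tested genes). BG3, a beta-1,3-glucanase, had 0.32, 0.21 and 0.03 FPKM in WT and 0.48, 0.70 and 0.72 in phod2. Its libraries did not overlap, but the level was low, and its log2 fold change of 1.71 ± 0.46 moved between 1.19 without WT replicate 3 and 2.44 without WT replicate 1. On the log2(FPKM + 1) scale BG3 was at 0.47, under 2-fold. PRB1, a basic relative of PR1, had 2.90 ± 0.265 FPKM in WT and 5.13 ± 0.551 in phod2 (0.78 ± 0.17), and the thaumatin-like gene AT4G36010 was at 0.46 ± 0.14. On the lower side AT4G33720, another PR1-type protein of the CAP family, had 4.48, 4.48 and 3.95 FPKM in WT and 1.77, 2.00 and 1.74 in phod2 (-1.26 ± 0.20). TLP1, a thaumatin-like protein, had 65, 48 and 71 counts in WT and 22, 34 and 27 in phod2, or 1.87 ± 0.167 and 0.893 ± 0.18 FPKM (SD, n = 3), at a log2 fold change of -1.11 ± 0.22. Both were lower in all phod2 libraries and stayed under 2-fold on the log2(FPKM + 1) scale (-0.90 and -0.60). The chitinase gene EP3 was at -0.48 ± 0.17, and 69.5% of its length is shared with other genes of the table.

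Among 10 tested receptors, kinases, G proteins and channels, 3 were higher and 3 lower by the adjusted p alone. The shares of all tested genes were 20.9% higher and 24.6% lower. CNGC11, a cyclic nucleotide-gated channel of the plasma membrane, had 0.62, 1.09 and 0.87 FPKM in WT and 2.64, 3.20 and 3.01 in phod2, at a log2 fold change of 1.76 ± 0.16. CNGC12, which lies 598 bases away, had 4.04, 4.22 and 3.28 FPKM in WT and 4.98, 4.99 and 5.84 in phod2 (0.42 ± 0.09). Both were higher in every phod2 library, and the fusion of this pair of genes is known from a mutant with constitutive cell death. Their transcripts were 97.3% identical over 31.8% of that of CNGC11, with a second match of 96.8% identity over 21.1% of it. Reads could thus be split wrongly between them. AT2G39110, a protein kinase gene, had 4.64, 5.91 and 4.78 FPKM in WT and 2.08, 1.85 and 1.97 in phod2 (-1.41 ± 0.13), lower in all phod2 libraries. RLP51, a receptor-like protein, was at -0.59 ± 0.07 and XLG2, an extra-large G protein alpha subunit, at -0.31 ± 0.06. Its relative XLG3 was at -0.05 ± 0.05, with overlapping libraries.

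The 2 members with the largest log2 fold changes in the higher direction were genes of iron uptake. FRO2, the ferric reductase of the root surface, had 0.81, 0.47 and 0.65 FPKM in WT and 6.30, 6.01 and 5.43 in phod2 (3.12 ± 0.14). IRT1, the main iron importer of the root, had 1.85, 2.07 and 2.16 FPKM in WT and 12.01, 13.07 and 13.82 in phod2 (2.64 ± 0.11). FER1, the iron storage protein ferritin of the plastid, went the other way, with 259.64, 258.51 and 271.41 FPKM in WT and 157.47, 152.33 and 154.31 in phod2 (-0.81 ± 0.03). No library of one genotype overlapped the other for these 3 genes. IRT1 and FRO2 act in the root epidermis, whose hair markers fell as given above. Another counted gene overlaps 63.6% of FER1.

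PME17, a pectin methylesterase of the cell wall that is induced by pathogens, had the largest difference in the lower direction, with 19.47, 18.07 and 20.17 FPKM in WT and 2.48, 2.26 and 2.72 in phod2 (-2.99 ± 0.09). ATPMEPCRA, a second pectin methylesterase, had 46.8 ± 0.162 FPKM in WT and 26.1 ± 1.15 in phod2 (-0.89 ± 0.04), and the mannan synthase CSLA2 was at -0.34 ± 0.04. PME12 did not pass (0.19 ± 0.10), and CAD7 was at 0.26 ± 0.04, so the cell wall genes did not share a direction. ATEXO70H1, an exocyst subunit for targeted secretion, had 1.51, 1.52 and 1.35 FPKM in WT and 0.49, 0.43 and 0.95 in phod2 (-1.24 ± 0.23). On the log2(FPKM + 1) scale it was at -0.61, under 2-fold. PXMT1, a methyltransferase gene, had 0.57, 0.67 and 0.50 FPKM in WT and 0.41, 0.17 and 0.10 in phod2. Its log2 fold change of -1.40 ± 0.44 rested on few counts. It was -1.01 without phod2 replicate 3, where it no longer passed (edgeR, adjusted p = 0.0786), and -2.10 without phod2 replicate 1. DESeq2 did not call it either (adjusted p = 0.0534), and on the log2(FPKM + 1) scale it was at -0.37. Its transcript is 90.9% identical to that of AT1G66690 over 57.2% of its length.

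The remaining members differed little. The lipoxygenases of jasmonate synthesis were at 0.12 ± 0.02 (LOX2), 0.03 ± 0.09 (LOX3) and 0.17 ± 0.14 (LOX4). Of 22 tested genes of other roles 7 were higher and 6 lower by the adjusted p alone (20.9% and 24.6% of all tested genes). The log2 fold changes of the 22 ran from -0.53 (MED37C, a heat shock protein of the HSP70 family, ± 0.07) to 0.55 (AT1G61340, an F-box protein, ± 0.21). A70 was at -0.35 ± 0.09. The members with the highest mean over all 6 libraries were ECS1, the translation factor ELF5A-2 (494 ± 21.7 FPKM in WT and 471 ± 19 in phod2), LOX2 (280 ± 1.94 and 313 ± 4.53), FER1 and the plastid isoprenoid enzyme ISPG (188 ± 1.28 and 216 ± 0.15). Apart from ECS1 and FER1 these abundant genes were at log2 fold changes of -0.11 ± 0.03 (ELF5A-2), 0.12 (LOX2) and 0.16 ± 0.02 (ISPG).

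**Figure D3:**
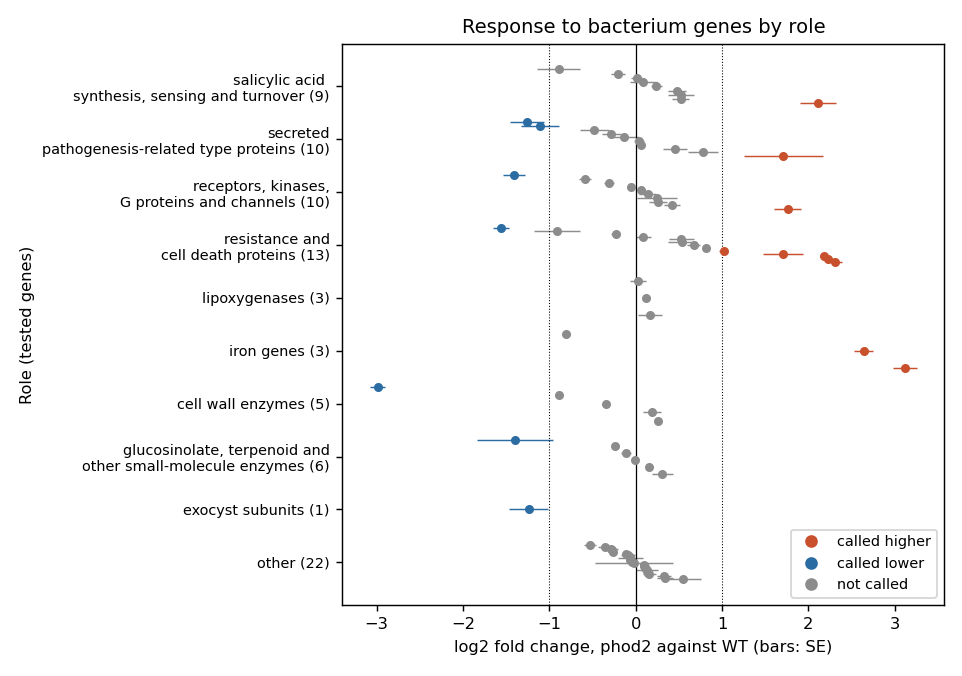
Log2 fold change of phod2 against WT for the 82 tested response to bacterium genes, 1 point a gene with a bar of 1 SE, grouped by role with the number of tested genes in brackets. Orange and blue points passed the 2-fold rule and the adjusted p, dotted lines mark 2-fold, and the group of resistance and cell death proteins holds 5 of the 10 orange points.

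The median FPKM of the tested members over all libraries was 9.5, against 9.3 for all tested genes, and 77 of the 95 had a mean of at least 1 FPKM. The median SD of log2 library-scaled counts within a genotype was 0.104 for tested members and 0.0915 for all tested genes. Defense response was the most frequent other term of the members (29 of 95, 30.5%), followed by defense response to bacterium (24 genes), response to wounding (20), response to fungus (18) and response to salicylic acid (17). The 20 genes of the term that the rule leaves out held 1 called higher and 1 called lower of 19 tested, named here after their values were seen: WRKY46 (0.213 ± 0.0451 FPKM in WT and 1.40 ± 0.416 in phod2) and the invertase BFRUCT3 (48.8 ± 0.875 and 18.8 ± 0.704).

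The promoters of the members were searched for short motifs, none of which the rule had used. The W-box (TTGACC or TTGACT, either strand), bound by WRKY factors, occurred in the 250 bases before the start of 37 of 95 members (38.9%) and of 27.8% of all genes. It was present in 2 of the 10 members called higher and in 5 of the 7 called lower. The as-1 core TGACG occurred in 22 members (23.2%), among them 6 of the 10 called higher and 4 of the 7 called lower. P1BS (GNATATNC), the element of the phosphate starvation regulator PHR1, occurred in 9 members (9.47%) and 5.42% of all genes, and in 0 of the 17 called. The G-box (CACGTG) occurred in 3 members (3.16%) and 5.9% of all genes. Motifs other than the W-box were chosen after values had been seen, TGACG and the W-box can share bases, and windows of neighbouring copies such as PCC1 and AT3G22235 are not independent.

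Other immune genes were read from 4 lists and tested with edgeR. The lists held 80 genes, of which 9 were members. Of the other 71 genes 66 were tested: 23 rose, 13 fell and 30 did not pass, beside 20.9% of all tested genes higher and 24.6% lower. Their median log2 fold change was 0.10. Among the 66, PAD3, WRKY53 and MPK3 carry the term but were left out by the rule, so their values belong to the choice of the term. Without these 3 genes 21 of 63 rose, 13 fell and 29 did not pass, with a median of 0.07. At 2-fold 1 rose, PNP-A (named after its value was seen), and 5 fell. The rise of PNP-A (1.72 ± 0.40) rested on few counts, 4 to 14 in WT and 18 to 33 in phod2.

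Changes of surface receptors and their signalling partners were small: 11 of 23 rose, 3 fell and 9, with MPK3, did not pass (DESeq2, 7 and 2, and 7 rose without phod2 replicate 2). The flagellin receptor FLS2 had 2.62, 3.10 and 3.02 FPKM in WT and 4.08, 4.51 and 4.65 in phod2, a log2 fold change of 0.56 ± 0.09 (edgeR, adjusted p = 1.2e-07). RBOHD, the oxidase of the immune oxidative burst, rose by 0.43 ± 0.04 (edgeR, adjusted p = 2.5e-12). EFR, the receptor for elongation factor Tu, was at 0.41 ± 0.17 (edgeR, adjusted p = 0.0372), and the chitin receptor CERK1 at -0.17 ± 0.06 (edgeR, adjusted p = 0.0195). Neither of these calls held in DESeq2 (adjusted p = 0.135 and 0.0957). BAK1, the co-receptor of FLS2 and EFR, fell by 0.16 ± 0.04 on the log2 scale (edgeR, adjusted p = 8.7e-04). At 2-fold 0 of the 23 genes passed in edgeR, by adjusted or unadjusted p, and 0 in DESeq2.

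Genes commonly used as markers of a response to microbial patterns split. Of 11 tested genes that are not members 5 rose (3 by DESeq2 and 3 without WT replicate 3), 4 fell and 2 did not pass. Without PAD3 and WRKY53, which carry the term, 3 of 9 rose. PAD3, the last enzyme of camalexin synthesis, had a log2 fold change of 0.79 ± 0.12 and WRKY53 of 0.66 ± 0.18, given without a test. PNP-A, WRKY29 (0.35 ± 0.12, edgeR, adjusted p = 0.0166) and WRKY33 (0.19 ± 0.07, edgeR, adjusted p = 0.0315) are the 3 that rose outside the term, and like PAD3 and WRKY53 they are named after their values were seen. PHI1, listed as EXL1 in the table, had 81.21, 71.75 and 75.35 FPKM in WT and 10.64, 11.33 and 11.88 in phod2, a log2 fold change of -2.79 ± 0.06 (edgeR, adjusted p = 3.3e-45). NHL10 fell by 2.08 ± 0.40 on the log2 scale (edgeR, adjusted p = 1.4e-05) from 19 to 37 counts in WT to 4 to 9 in phod2. CYP71A12, of camalexin synthesis, fell by 1.73 ± 0.22 (edgeR, adjusted p = 8.1e-10), and its transcript is 90.5% identical to that of CYP71A13. FRK1, the receptor kinase SIRK, was near the limit of counting with 1 to 22 counts per library and did not pass (-0.27 ± 0.44, edgeR, adjusted p = 0.64). Its sign turned without WT replicate 1 (0.13) or phod2 replicate 1 (0.22).

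Of 18 tested intracellular receptors and partners that are not members 7 rose, 2 fell and 9 did not pass, while 12 rose and 0 fell with library totals in place of TMM. RIN4, a protein that bacterial effectors target and immune receptors guard, rose by 0.41 ± 0.05 (edgeR, adjusted p = 6.3e-09). EDS1, the partner of PAD4, was at -0.01 ± 0.07 (edgeR, adjusted p = 0.94). The 2 that fell, PBS1 and ADR1-L2, are named after their values were seen, and neither was called by DESeq2, by limma on log2 FPKM or without WT replicate 1 or WT replicate 3. At 2-fold 0 of the 18 genes passed in edgeR, by adjusted or unadjusted p, and 0 in DESeq2.

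In the list of salicylic acid and systemic resistance 0 of the 14 tested genes that are not members rose in edgeR (2 were higher at an unadjusted p of 0.05 or less, and 0 by DESeq2, and 1 rose without phod2 replicate 1 or phod2 replicate 3), 4 fell and 10 did not pass. EDS5, which exports the salicylic acid precursor from the plastid, had 5.25, 4.98 and 5.54 FPKM in WT and 3.07, 2.85 and 2.55 in phod2, a log2 fold change of -0.94 ± 0.11 (edgeR, adjusted p = 8.0e-11). ALD1, the first enzyme of pipecolic acid synthesis, had 16 to 25 counts in WT and 1 to 9 in phod2. It fell by 2.31 ± 0.47 (edgeR, adjusted p = 4.5e-05), and its log2 fold change was -3.59 without phod2 replicate 3. Of the output genes PR1 was at -0.10 ± 0.22 (edgeR, adjusted p = 0.751), PR2 at -0.34 ± 0.12 (edgeR, adjusted p = 0.019, and 0.0946 in DESeq2) and PR5 at 0.23 ± 0.12 (edgeR, adjusted p = 0.135). Without phod2 replicate 3 PR5 was at 0.33 and passed (edgeR, adjusted p = 0.0392), and without phod2 replicate 1 PR1 was at 0.04.

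**Figure D4:**
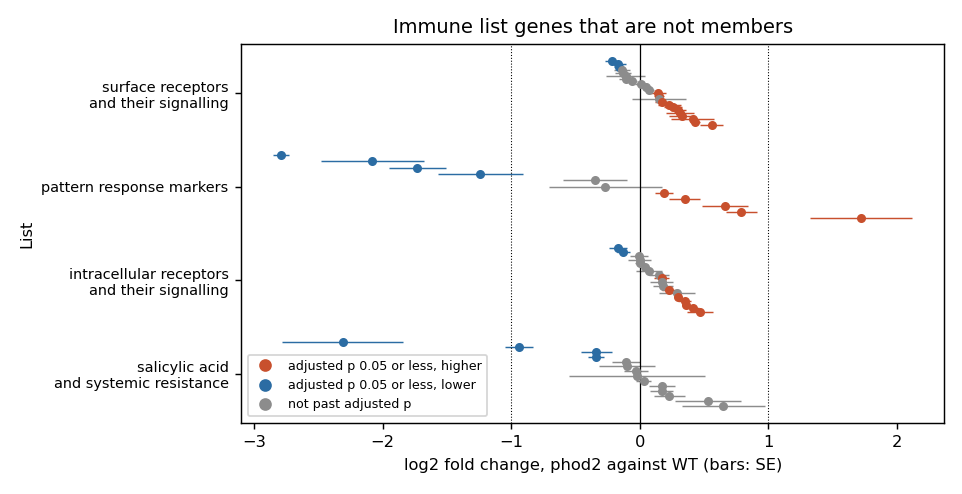
Log2 fold change of phod2 against WT for the 66 tested immune list genes that are not members, by list, 1 point a gene with a bar of 1 SE. Orange points rose and blue points fell (edgeR, adjusted p of 0.05 or less), and grey points did not pass. Genes of the receptor lists lie within 2-fold (dotted lines), and the 5 genes that fell by over 2-fold are pattern response markers and ALD1.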

How the data were processed

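Counts per gene and library and FPKM were taken from the authors' deposited table, per the file headers. The FPKM equal the count over exonic size and library total to within 0.005. Which aligner and counter were used, and whether by strand, is not given in the sources used here, so antisense and overlapping genes cannot be told apart. The submitters' processing notes name build mm10, a mouse build, while all 95 members have the start and end of the TAIR10.1 annotation (RefSeq), which gave the sequences. Counts were tested over all 20169 genes left by filterByExpr with edgeR 4.0.16 (quasi-likelihood, 2-sided, TMM, Benjamini-Hochberg) in R 4.3.3, a step tested on simulated data. Alternatives used DESeq2 1.42.0 and limma 3.58.1. Transcripts were compared with BLAST 2.17.0 and aligned with Biopython 1.88, and figures drawn with matplotlib 3.10.9. Members, lists and roles were chosen with earlier results of these data known. Named are all called members, up to 10 more in each direction past the adjusted p by fold change, the 5 most abundant, 12 immune genes fixed by name and the top 3 of each list. Further members are named to complete a role group, after their values were seen. One gene that this rule names is not reported here.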

Additional observations from a re-analysis of the deposited data

How the results depend on the processing

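The counts of 10 members called higher and 7 lower were the same by DESeq2, with its size factors, with library totals and with the replicate block. DESeq2 did not call PXMT1 and called AT4G03480 lower, which edgeR did not test. They changed to 6 and 2 when 5 FPKM in 3 libraries was required, since fewer genes were then tested, and to 33 and 25 by the adjusted p alone. Limma on log2(FPKM + 1) called 8 higher and 3 lower. With single libraries left out 9 to 10 were higher and 7 to 8 lower. Without overlapping or near-identical members, and without FRO2, IRT1 and FER1, both chosen after seeing the data, the calls were 7 and 7, and 8 and 7. Immune list genes that are not members and passed the adjusted p went from 23 to 1 higher and from 13 to 5 lower at 2-fold. They went to 7 lower at 5 FPKM, to 16 higher and 9 lower with DESeq2, and to 29 and 10 with library totals. Without the list genes that carry the term (added after seeing the data) they were 21 and 13. With single libraries left out they were 18 to 23 and 10 to 12. The share of members with a W-box rose to 55.8% with the core TTGAC, beside 44.3% of all genes. The sign of EDS1 turned with library totals (0.03), limma (0.03 and 0.04) and without WT replicate 3 (0.02) or phod2 replicate 3 (0.03). That of NPR1 turned without WT replicate 1 (-0.04) and without phod2 replicate 1 or 2 (-0.02), that of FRK1 without WT replicate 1 (0.13) or phod2 replicate 1 (0.22), and that of PR1 without phod2 replicate 1 (0.04). With single libraries left out the lowest and highest values were -0.04 and 0.07 for NPR1, -0.80 and 0.22 for FRK1, and -0.25 and 0.04 for PR1. Of all values of named genes under 14 settings 736 kept direction and side of the adjusted p threshold, 36 lost it, 1 gained it and 11 turned. The 2-fold line was not part of this count, and some of the 736 crossed it. Examples are HR4 without WT replicate 3 (0.96) and DLO1 without phod2 replicate 3 (-1.18). The cause was not tested. Replicate numbers did not pair the libraries (correlations of same-numbered libraries -0.0212, 0.00965 and -0.00777), and the replicate block gave 23 immune genes higher and 12 lower.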
